A study of Homo sapiens with 6 samples.

Results

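The genes described here encode the plasminogen activators and the proteins that hold or block them: urokinase (PLAU), tissue plasminogen activator (PLAT), the urokinase receptor (PLAUR), protease nexin 1 (SERPINE2) and plasminogen activator inhibitor 2 (SERPINB2). They were chosen by name, and all 5 were found, each as 1 row among the 67026 genes of the count table. Messenger RNA was measured in tumours grown from PC-3, a human cell line derived from a bone metastasis of prostate cancer. Before injection a lentivirus had given the cells of the shVCAN group a short hairpin that targets VCAN, the gene for the matrix proteoglycan versican, and those of the shGFP group a control hairpin against GFP. There were 3 tumours per group, as the labels number them. Cells of both groups were selected with puromycin at 2 µg/mL, and 1200000 of them were injected under the skin of each male NSG mouse in a mixture that was 50% Matrigel. The mice were 4 to 5 weeks old, and growth was followed for 4 weeks. NSG mice (NOD.Cg-Prkdcscid Il2rgtm1Wjl/SzJ) lack T, B and natural killer cells but keep myeloid cells, vessels, fibroblasts and muscle. What the comparison addresses is how these transcripts differ when versican is knocked down.

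Plasminogen is a circulating zymogen that urokinase and tissue plasminogen activator cut into plasmin, a broad serine protease that dissolves fibrin and cleaves matrix proteins and latent growth factors. Urokinase works mostly at the cell surface, where it binds its lipid-anchored receptor, while tissue plasminogen activator is best known for fibrin breakdown in vessels. Serpins are suicide inhibitors that trap the activators in covalent complexes, which surface receptors then clear. PC-3 cells are known as strong producers of urokinase.

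The libraries held 12959840 to 13327617 counts in shVCAN and 11253058 to 12936539 counts in shGFP. VCAN had 69, 39 and 44 counts in the shVCAN tumours and 133, 104 and 121 counts in the shGFP tumours, which is a difference of −1.53 in log2 (SE 0.207, adjusted p = 4.59e-07 in the edgeR quasi-likelihood test). Permuting the 6 VCAN levels exactly, two-sided, gave p = 0.1, the smallest value that 3 against 3 tumours allows. The messenger RNAs of the mitochondrial genome took 6.39% to 7.63% of the counts in shVCAN and 13.3% to 16.2% in shGFP. Of 16254 genes tested, 19.2% were called higher (edgeR quasi-likelihood, adjusted p below 0.05), 21.1% were called lower, and 40.3% were thus called in either direction. Markers of PC-3 and prostate epithelium summed to 1132 to 1175 CPM in shVCAN and 1284 to 1422 CPM in shGFP, with 0 higher, 3 lower (KRT18, KRT8 and EPCAM) and 2 not called of 5 tested from 7 listed. The keratin KRT18 had 287 ± 4.11 CPM in shVCAN and 417 ± 29.2 CPM in shGFP. KLK3, which encodes prostate-specific antigen and which PC-3 cells are known to lack, had no count.

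Levels are given as counts-per-million (CPM) after scaling the libraries with TMM, a method that balances the bulk of the genes between libraries. A positive log2 fold change means a higher level in shVCAN, and SE is its standard error. All 5 members passed the filter on low counts. In shVCAN, 3 members rose (PLAU, PLAT and SERPINB2), none fell, and 2 (PLAUR and SERPINE2) were not called, where 19.2% of all genes tested rose. The same 3 members had groups without overlap, all higher in shVCAN, which was so for 23.9% of the genes tested (48.7% in either direction). A bulk library cannot tell fewer cells of a type from less RNA per cell.

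**Figure D1:**
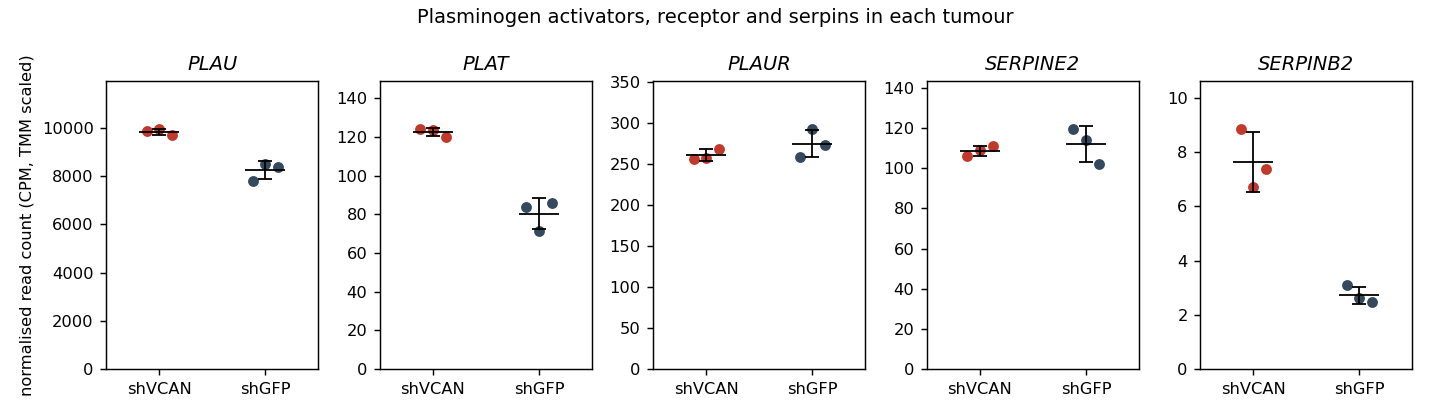
Normalised read counts (CPM, TMM scaled, axes from 0) of the 5 genes in each of 3 shVCAN and 3 shGFP tumours, with a panel per gene. Points are tumours, horizontal bars the means and whiskers the SD. PLAU, PLAT and SERPINB2 were higher in every shVCAN tumour than in any shGFP tumour, and PLAUR and SERPINE2 overlapped.

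Urokinase (PLAU, ENSG00000122861.16, chromosome 10, 73909177 to 73917497, GRCh38) was among the most abundant transcripts of these tumours and rose modestly in shVCAN. Its counts were 135919, 141248 and 132892 in the shVCAN tumours and 93964, 91808 and 92025 in the shGFP tumours. It ranked 3 among all genes by count in each shVCAN tumour and between 7 and 12 in the shGFP tumours. The mitochondrial messenger RNAs MT-CO2, MT-CO3 and MT-ND4 lay above PLAU in every shGFP tumour and under it in every shVCAN tumour. The rank of PLAU therefore does not measure its own rise alone. All counts include those of the mitochondrial messenger RNAs, 6.39% to 7.63% in shVCAN and 13.3% to 16.2% in shGFP. Of this unscaled total PLAU took 1.01% to 1.06% in shVCAN and 0.726% to 0.816% in shGFP. After scaling, its level was 9865, 9966 and 9697 CPM in shVCAN tumours 1, 2 and 3, against 7824, 8529.8 and 8405 CPM in shGFP tumours 1, 2 and 3. Every shVCAN tumour lay above every shGFP tumour, and the lowest shGFP value was that of tumour 1.

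The PLAU means were 9843 ± 136 CPM in shVCAN and 8253 ± 376 CPM in shGFP (SD, n = 3 each). That is a fold of 1.19 (95% interval 1.13 to 1.26), equal to 0.25 on the log2 scale (SE 0.0370, edgeR quasi-likelihood adjusted p = 1.73e-06). The fold change of PLAU exceeded that of 72.0% of the genes tested, genes that fell included. In size it was under the median absolute log2 fold change of all genes tested, 0.278. The rise of PLAU was thus precise rather than large. Counting error was under the spread between tumours: the coefficient of variation of the PLAU level was 1.38% in shVCAN and 4.56% in shGFP, and counting alone gives 0.270% and 0.329%. Scaled by library size alone, the log2 fold change of PLAU was 0.42, and all tested genes then had a median of 0.17. Relative to library sizes without the mitochondrial messenger RNAs it was 0.29. C10orf55, on the opposite strand, covers 31.1% of the exonic bases of PLAU. It had 857 to 925 counts in shVCAN and 596 to 780 in shGFP, and reads of the pair cannot be told apart, the strand setting being not given in the sources used here.

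Tissue plasminogen activator (PLAT, ENSG00000104368.18, chromosome 8) rose more than urokinase from a much lower level. It had 1711, 1752 and 1645 counts in the shVCAN tumours and 1007, 770 and 941 in the shGFP tumours. The levels were 124.2, 123.6 and 120.0 CPM in shVCAN tumours 1, 2 and 3, against 83.9, 71.5 and 85.9 CPM in shGFP tumours 1, 2 and 3. The groups were well apart, the shVCAN tumours lay close together, and shGFP tumour 2 was the lowest. The PLAT means were 123 ± 2.25 CPM in shVCAN and 80.4 ± 7.78 CPM in shGFP (SD, n = 3 each), a fold of 1.52 (95% interval 1.39 to 1.67). The log2 fold change of PLAT was 0.61 (SE 0.0669, edgeR quasi-likelihood adjusted p = 1.20e-08), above that of 90.3% of the genes tested. No other annotated gene shares exonic bases with PLAT.

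The urokinase receptor (PLAUR, ENSG00000011422.12, chromosome 19, 43646095 to 43670547) did not follow its ligand. PLAUR was measured at 256, 258 and 269 CPM in shVCAN tumours 1, 2 and 3, and at 259, 293 and 273 CPM in shGFP tumours 1, 2 and 3. The groups overlapped, and shGFP tumour 2 was the highest of the 6. Its means were 261 ± 6.87 CPM in shVCAN and 275 ± 17 CPM in shGFP (SD, n = 3 each). The fold was 0.949 with a 95% interval of 0.882 to 1.02, and the log2 fold change of −0.07 was not called (SE 0.0523, edgeR quasi-likelihood adjusted p = 0.270). The sign depended on the scaling, since library size alone gave 0.09, also not called.

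Protease nexin 1 (SERPINE2, ENSG00000135919.13, chromosome 2, 223975112 to 224039319), an inhibitor of thrombin, urokinase and tissue plasminogen activator that is held at the cell surface and in the matrix, was not called either. It had 106, 109 and 111 CPM in shVCAN tumours 1, 2 and 3, and 119.6, 114 and 102 CPM in shGFP tumours 1, 2 and 3. The shVCAN values lay inside the range of the shGFP values. Means of SERPINE2 were 109 ± 2.59 CPM in shVCAN and 112 ± 9.01 CPM in shGFP (SD, n = 3 each), a fold of 0.971 (95% interval 0.887 to 1.06). The log2 fold change was −0.04 (SE 0.0638, edgeR quasi-likelihood adjusted p = 0.629). It was 0.12 with library size alone and 0.01 without shGFP tumour 1, not called in both cases.

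Plasminogen activator inhibitor 2 (SERPINB2, ENSG00000197632.9, chromosome 18, 63871692 to 63903890) had the largest fold of the 5 genes at the lowest level. SERPINB2 is a clade B serpin that is mostly kept inside cells, inhibits urokinase when it is released, and is known for strong induction in stressed or inflamed monocytes and epithelia. It had 122, 95 and 101 counts in the shVCAN tumours and 37, 28 and 27 counts in the shGFP tumours. The levels were 8.86, 6.70 and 7.37 CPM in shVCAN tumours 1, 2 and 3, against 3.08, 2.60 and 2.47 CPM in shGFP tumours 1, 2 and 3. All shVCAN tumours were more than 1 log2 unit above the highest shGFP tumour, with a gap of 1.08 (log2 CPM, prior count 2).

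The SERPINB2 means were 7.64 ± 1.10 CPM in shVCAN and 2.72 ± 0.323 CPM in shGFP (SD, n = 3 each), a fold of 2.80 (95% interval 2.04 to 3.84). Its log2 fold change was 1.48 (SE 0.223, edgeR quasi-likelihood adjusted p = 2.91e-06), above that of 98.9% of the genes tested. The counts behind this gene are low, and counting alone gives a coefficient of variation of 9.71% in shVCAN and 18.1% in shGFP. The observed values were 14.4% in shVCAN and 11.9% in shGFP. In shGFP the spread between tumours was thus smaller than counting error alone gives. SERPINB10 shares 19.9% of the exonic bases of SERPINB2, and it had no count in any tumour.

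**Figure D2:**
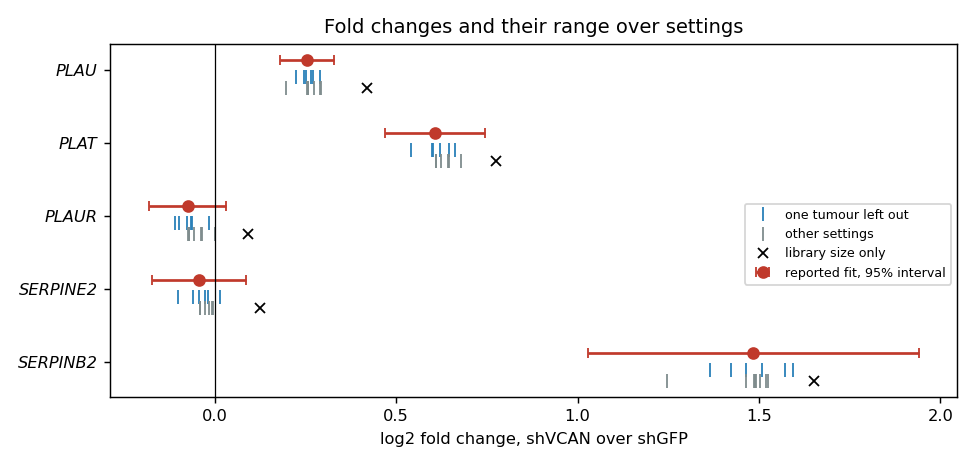
Log2 fold changes of the 5 genes, shVCAN over shGFP. Red points and bars are the reported estimates with 95% intervals, blue marks leave out 1 tumour each, grey marks are the other settings and crosses scale by library size alone. PLAU, PLAT and SERPINB2 lay above 0 in every setting, while PLAUR and SERPINE2 had values on both sides of 0.

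Promoter sequences are shown to set SERPINB2, with the largest fold, beside PLAU, with a small one, and PLAUR, which was not called. RefSeq windows on GRCh38.p14, from 250 bases before to 50 after a start site, were found for 4 of the 5 genes, in 6 windows. The windows printed are SERPINB2 at chr18:63887455-63887754 (plus strand), PLAUR at chr19:43670120-43670419 (minus strand) and the more downstream of the 2 PLAU windows at chr10:73910882-73911181 (plus strand). Capitals mark matches, on either strand, to the AP-1 motif TGANTCA or to the TATA box letters TATAAA.
SERPINB2: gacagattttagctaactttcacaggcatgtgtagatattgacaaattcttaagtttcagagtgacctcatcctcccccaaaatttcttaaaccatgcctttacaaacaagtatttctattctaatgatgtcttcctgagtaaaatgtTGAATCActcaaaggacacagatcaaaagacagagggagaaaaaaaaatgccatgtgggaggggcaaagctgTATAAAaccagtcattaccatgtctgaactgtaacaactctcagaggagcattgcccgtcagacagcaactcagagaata
PLAUR: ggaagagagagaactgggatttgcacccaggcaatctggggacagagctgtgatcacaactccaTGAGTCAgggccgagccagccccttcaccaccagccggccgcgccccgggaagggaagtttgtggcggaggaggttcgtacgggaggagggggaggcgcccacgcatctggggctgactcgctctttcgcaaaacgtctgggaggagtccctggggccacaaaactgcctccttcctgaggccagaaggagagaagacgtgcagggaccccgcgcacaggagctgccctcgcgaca
PLAU: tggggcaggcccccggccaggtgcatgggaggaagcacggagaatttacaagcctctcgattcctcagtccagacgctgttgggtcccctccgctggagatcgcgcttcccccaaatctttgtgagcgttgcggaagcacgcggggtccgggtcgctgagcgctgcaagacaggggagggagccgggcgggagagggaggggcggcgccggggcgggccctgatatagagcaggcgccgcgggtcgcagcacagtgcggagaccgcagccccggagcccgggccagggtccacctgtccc
The SERPINB2 window held 1 match to each motif, with the first base of the AP-1 match (TGAATCA) at position −102 and that of the TATA box match at −30, counted from the start site. In PLAUR 1 AP-1 match (TGAGTCA) begins at −186. Neither of the 2 windows of PLAU nor of the 2 of SERPINE2 had a match to these letters, and the motifs do not overlap each other in any window. Among 34943 windows of the same length, 7.72% held the AP-1 letters and 11.6% the TATA box letters. The SERPINB2 window was poor in CpG, with 1 CpG and 39.0% G or C. The 2 PLAU windows differed from each other. The window shown had 28 CpG and 70.0% G or C, and the other had 5 CpG and 48.7% G or C. The PLAUR window had 18 CpG. These matches describe the letters and are not evidence of binding.

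Divided by exonic length, the order of the levels in shVCAN was PLAU, PLAUR, PLAT, SERPINE2 and SERPINB2. PLAU stood at 3337 ± 46.1 CPM per kb in shVCAN and 2798 ± 128 CPM per kb in shGFP. PLAUR followed at 58.6 ± 1.54 CPM per kb in shVCAN and 61.7 ± 3.81 CPM per kb in shGFP. PLAT and SERPINE2 were neighbours that separated in shVCAN, where PLAT had 18.5 ± 0.340 and SERPINE2 12.2 ± 0.291 CPM per kb. In shGFP they did not differ beyond their spread, with 12.2 ± 1.18 CPM per kb for PLAT and 12.6 ± 1.01 CPM per kb for SERPINE2. That tie depended on the length used: per kb of the longest transcript, PLAT had 23.2 ± 2.25 and SERPINE2 18.7 ± 1.5 CPM in shGFP. SERPINB2 was lowest, at 2.78 ± 0.401 CPM per kb in shVCAN and 0.988 ± 0.118 CPM per kb in shGFP.

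**Figure D3:**
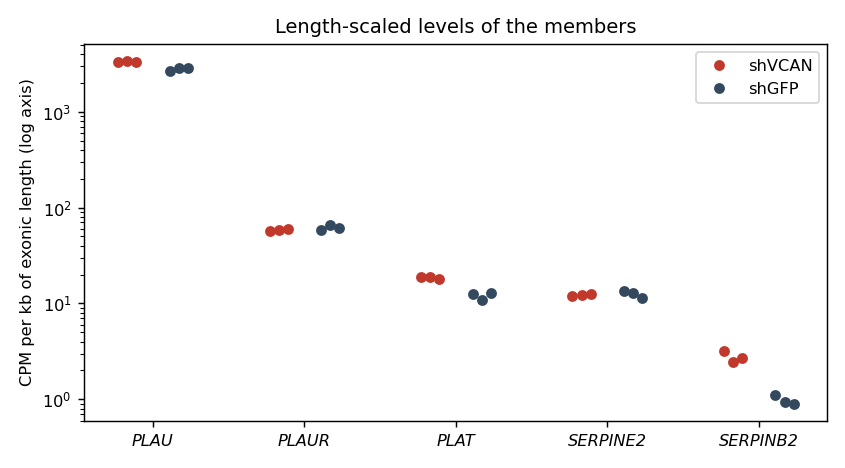
Levels of the 5 genes in CPM per kb of exonic length on a log axis, with 1 point per tumour, shVCAN left of shGFP for each gene. PLAU lay between 2652 and 3378 CPM per kb, far above the other members, and PLAT and SERPINE2 overlapped in shGFP and not in shVCAN.

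Ratios within a tumour do not depend on how libraries are scaled, but their size depends on the gene length used. Per kb of exonic length, urokinase exceeded tissue plasminogen activator by 178, 181 and 181 times in shVCAN tumours 1, 2 and 3, against 209, 267 and 219 times in shGFP tumours 1, 2 and 3. The groups did not overlap, and shGFP tumour 2 had the highest ratio. Receptor messenger RNA was 1.72%, 1.71% and 1.84% of urokinase messenger RNA in the shVCAN tumours, against 2.19%, 2.27% and 2.15% in the shGFP tumours. Receptor per ligand was thus lower in all 3 shVCAN tumours. Per kb of the longest transcript, the mean ratio of PLAUR to PLAU was 0.0438 in shVCAN and 0.0550 in shGFP. SERPINE2 per unit of both activators was 0.355%, 0.360% and 0.378% in shVCAN, against 0.505%, 0.443% and 0.401% in shGFP, again without overlap and with the widest spread in shGFP. These ratios carry no p-value, since they combine members.

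Other genes of the pathway were described from a list of 61, of which 41 passed the filter, with 16 higher, 14 lower and 11 not called. That is 73.2% called, beside 40.3% of all genes tested, and the median log2 fold change was 0.09 beside 0.0014 for all genes. The list was chosen with earlier results of these data known and was not matched to all genes for level. No set test was run, so the excess over 40.3% is not a result about the pathway. Plasminogen itself (PLG), which the liver is known to make, had 0 counts in all shVCAN tumours and 4 counts in 1 shGFP tumour. Vitronectin (VTN), a ligand of the urokinase receptor, had no count.

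One group of the list holds plasminogen, proteases that act on it, on pro-urokinase or on hepatocyte growth factor, and the growth factors HGF and MST1. Of these 16 genes 8 were tested, 5 rose, 1 fell and 2 were not called (75% called, beside 40.3% of all genes tested). Coagulation factor XII (F12), which can cleave plasminogen, had 26.4 ± 2.71 CPM in shVCAN and 15.5 ± 1.15 CPM in shGFP, 0.77 on the log2 scale (edgeR quasi-likelihood adjusted p = 3.01e-06). Cathepsin B (CTSB), a lysosomal protease that can activate pro-urokinase, had 89.9 ± 5.31 CPM in shVCAN and 68.4 ± 0.186 CPM in shGFP. Matriptase (ST14), a membrane protease that activates pro-urokinase and pro-hepatocyte growth factor, fell to 18.4 ± 1.92 CPM in shVCAN, against 30.8 ± 1.76 CPM in shGFP. HGF, its activator HGFAC and the kallikrein KLK4 were also called higher, with fewer than 5 CPM in both groups.

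All 7 tested inhibitors on the list were called, 3 higher and 4 lower, where 40.3% of all genes tested were called. Protein C inhibitor (SERPINA5), which inhibits urokinase, fell to 15.1 ± 2.50 CPM in shVCAN, against 39.5 ± 6.38 CPM in shGFP, −1.39 on the log2 scale (SE 0.122, edgeR quasi-likelihood adjusted p = 1.22e-10). The matriptase inhibitors SPINT1 and SPINT2 fell as well: SPINT1 had 109 ± 4.68 CPM in shVCAN and 134 ± 7.93 CPM in shGFP, and its call was lost with library size alone (adjusted p = 0.125). Neuroserpin (SERPINI1), an inhibitor of tissue plasminogen activator in the brain, rose to 41.0 ± 5.67 CPM in shVCAN, against 27.4 ± 3.36 CPM in shGFP, a log2 fold change of 0.58 that was 0.30 once each tumour's trend with length and GC content was taken out as an offset. SERPINB6 and SERPINB8, intracellular clade B serpins, rose with log2 fold changes of 0.31 and 0.29.

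Of 10 plasminogen-binding and related genes, 7 were tested, 4 rose, 1 fell and 2 were not called. That is 71.4% called, beside 40.3% of all genes tested. Annexin A2 (ANXA2) and S100A10 form the annexin A2 heterotetramer, in which S100A10 binds plasminogen and tissue plasminogen activator. S100A10 had 416 ± 9.48 CPM in shVCAN and 368 ± 8.15 CPM in shGFP, a call lost with the offset (adjusted p = 0.639). ANXA2 rose by a log2 fold change of 0.13 (adjusted p = 0.0123), with adjusted p between 0.0519 and 0.0573 when shVCAN tumour 1, shGFP tumour 1 or shGFP tumour 3 was left out. The plasminogen receptor PLGRKT had 20.2 ± 0.639 CPM in shVCAN and 14.1 ± 2.66 CPM in shGFP, also lost with the offset (adjusted p = 0.240). HMGB1, another plasminogen-binding protein, rose by 0.31; ANXA2 and HMGB1 have processed pseudogenes that could share their reads. Thrombomodulin (THBD), the thrombin cofactor through which the fibrinolysis inhibitor CPB2 is activated, fell to 7.31 ± 0.632 CPM in shVCAN, against 49.4 ± 5.52 CPM in shGFP.

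Receptors that bind or clear activator and serpin complexes went both ways, with 2 higher, 3 lower and 3 not called of 8 tested. That is 62.5% called, beside 40.3% of all genes tested. LRP1, the main endocytic receptor for urokinase and serpin complexes, had 266 ± 20.3 CPM in shVCAN and 350.2 ± 13.4 CPM in shGFP, −0.40 on the log2 scale (SE 0.0537, edgeR quasi-likelihood adjusted p = 4.79e-07). With the offset LRP1 was at −0.13 (edgeR quasi-likelihood adjusted p = 0.0253), and with library size alone at −0.23. The mannose 6-phosphate receptor IGF2R, which binds the urokinase receptor, fell to 88.6 ± 6.14 CPM in shVCAN, against 166 ± 3.84 CPM in shGFP. M6PR fell by 0.56 on the log2 scale, although 29.3% of its exonic bases are shared with another annotated gene. MRC2, an endocytic collagen receptor that associates with the urokinase receptor, rose to 97.4 ± 9.87 CPM in shVCAN, against 58.5 ± 3.38 CPM in shGFP. LRP8 rose by a log2 fold change of 0.27, which was 0.41 with the offset.

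Of 14 partners of the urokinase receptor, 11 were tested, 2 rose, 5 fell and 4 were not called. That is 63.6% called, beside 40.3% of all genes tested. The integrin chains ITGA3 and ITGA5, which associate with the receptor in other cells, fell by 0.87 and 0.57 on the log2 scale. ITGB5 had 40.9 ± 2.34 CPM in shVCAN and 60.0 ± 3.41 CPM in shGFP, and EGFR had 24.0 ± 2.03 CPM in shVCAN and 38.2 ± 0.282 CPM in shGFP. ITGB3 fell by 1.06 on the log2 scale, although 51.6% of its exonic bases are shared with another annotated gene. ITGAV, the partner chain of ITGB3 and ITGB5 in the vitronectin receptors, rose by 0.39. ITGB1 rose by 0.14, its groups overlapped, and the call was lost without shVCAN tumour 1, shVCAN tumour 3 or shGFP tumour 3 (adjusted p of 0.0578 to 0.0888).

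**Figure D4:**
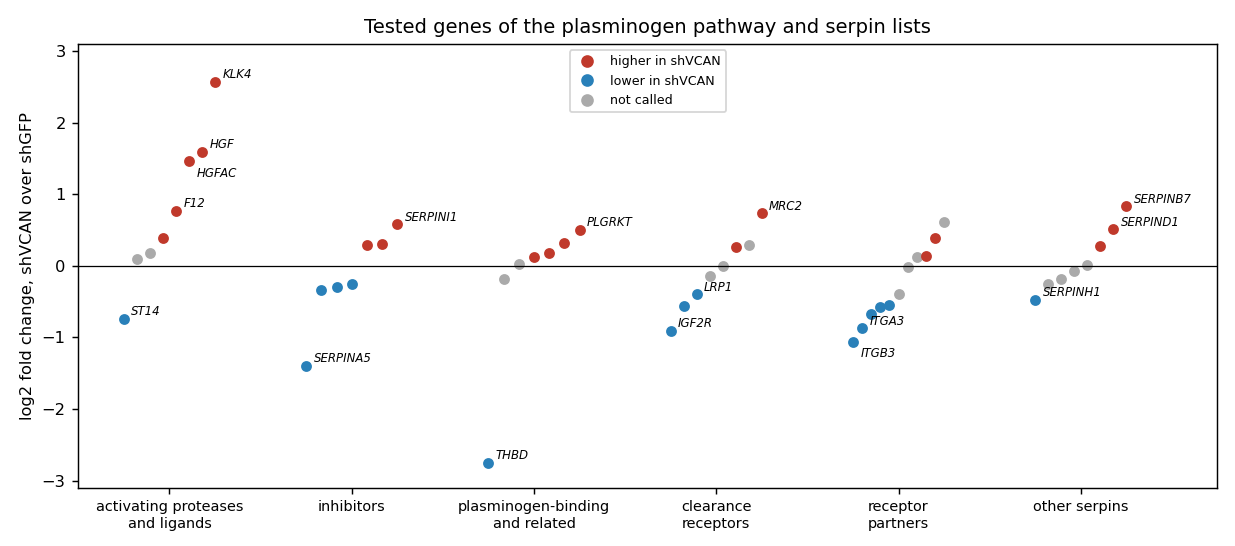
Log2 fold changes (shVCAN over shGFP) of tested genes in 5 role groups of the plasminogen pathway list and in the list of other serpins, with 1 point per gene. Red points were called higher, blue points lower and grey points not called. Called genes lay on both sides of 0 in each of the 6 groups, from THBD at −2.75 to KLK4 at 2.57.

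SERPINB2 lies in a row of clade B serpin genes on chromosome 18, of which 4 of 10 passed the filter. Of these 4, 3 rose (SERPINB2 among them) and 1 was not called, where 19.2% of all genes tested rose. SERPINB7, a serpin of squamous epithelia that ends 66.3 kb before SERPINB2, had 19.7, 24.8 and 18.8 CPM in shVCAN tumours 1, 2 and 3, against 11.7, 12.3 and 11.6 CPM in shGFP tumours 1, 2 and 3. On the log2 scale it rose by 0.84 (SE 0.131, edgeR quasi-likelihood adjusted p = 5.74e-06). SERPINB8, 66.0 kb past SERPINB2, had 51.0 ± 3.08 CPM in shVCAN and 41.8 ± 3.70 CPM in shGFP. Maspin (SERPINB5), 366.6 kb before SERPINB2, was not called, at 18.3 ± 0.136 CPM in shVCAN and 18.2 ± 3.62 CPM in shGFP. The near-identical squamous serpins SERPINB3 and SERPINB4 stayed under 1 CPM and were not tested, and SERPINB10 and SERPINB12 had no count. Among the 21 other serpins listed, 8 were tested, 3 rose, 1 fell and 4 were not called. That is 50% called, near the 40.3% of all genes tested. Heparin cofactor 2 (SERPIND1), a thrombin inhibitor, had 51.5 ± 4.64 CPM in shVCAN and 36.2 ± 3.25 CPM in shGFP, and the collagen chaperone SERPINH1 had 276 ± 9.30 CPM in shVCAN and 383 ± 11.1 CPM in shGFP. SERPINF1 was called at the margin (edgeR quasi-likelihood adjusted p = 0.0395), and its groups overlapped. Its call was lost in 6 of the alternative fits and also at an adjusted p under 0.01.

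**Figure D5:**
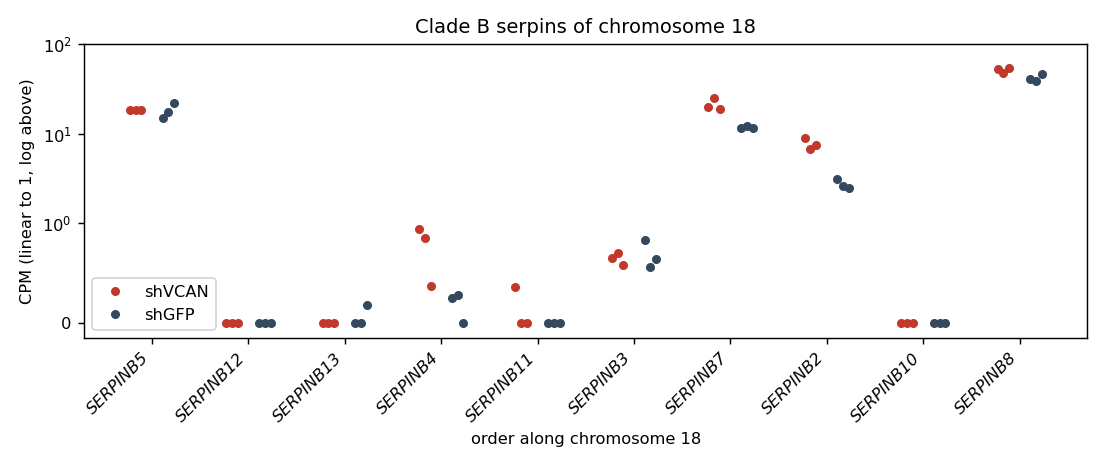
Levels of the 10 clade B serpin genes of chromosome 18 in their order along the chromosome, in CPM on an axis that is linear to 1 and logarithmic above, with 3 shVCAN tumours left of 3 shGFP tumours. SERPINB7, SERPINB2 and SERPINB8 were higher in every shVCAN tumour than in any shGFP tumour, which was so for 23.9% of all genes tested. SERPINB4, under 1 CPM and not tested, also had no overlap. The other genes overlapped or had no count.

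The genes whose profile over the 6 tumours was most like that of each member were found by the root mean square difference of log2 CPM, centred per gene, among 7811 genes of at least 20 CPM. APRT (0.0136) and CDK4 (0.0186) came closest to PLAU, and LYRM4 (0.0236) and CAPG (0.0382) to PLAT. SRD5A1 (0.0169) and ACTB (0.0210) came closest to PLAUR, and UACA (0.0251) and DOHH (0.0269) to SERPINE2. SERPINB2 was nearest to CNTN1 (0.0599) and to CCN4 (0.0835). CNTN1, a neuronal adhesion protein, had 46.2 ± 4.72 CPM in shVCAN and 16.2 ± 1.74 CPM in shGFP. These likenesses describe 6 tumours in 2 groups and carry no test.

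Host cells can also make these proteins, and a step that removes mouse reads was not given in the sources used here. The counts are of human genes, so a mouse transcript is counted only where its reads align to the human gene. The sums below therefore do not measure how many host cells were present. Of all genes tested, 40.3% were called. Macrophage and monocyte markers were near 0, with 2.75 to 3.94 CPM summed over 12 genes in shVCAN and 3.75 to 6.41 CPM in shGFP. Of these markers 3 were tested and 1 was called, lower (CD14), and C1QA, C1QB, CD163 and TYROBP had no count. Of 7 neutrophil markers S100A9 alone was tested and rose, the summed level was 88.5 to 103 CPM in shVCAN and 64.3 to 82.8 CPM in shGFP, and ELANE had no count. Endothelial markers summed to 164 to 168 CPM in shVCAN and 209 to 219 CPM in shGFP. Of 10 listed, 6 were tested, with 1 higher and 4 lower. None was at 0 in all tumours, but VWF, CLDN5, ERG and EMCN were not tested, with at most 12 counts in any tumour. Fibroblast and pericyte markers summed to 397 to 492 CPM in shVCAN and 838 to 944 CPM in shGFP, with 1 higher and 5 lower of 8 tested from 11 listed. COL1A1 alone made most of both sums, with 300 ± 48.9 CPM in shVCAN and 619 ± 37.5 CPM in shGFP. THY1 had no count and DCN had 5 counts in 1 shGFP tumour only. Skeletal muscle markers summed to 154 to 231 CPM in shVCAN and 205 to 359 CPM in shGFP, with 4 lower and 1 not called of 5 tested from 7 listed, and TNNT3 had no count. Of 7 keratinocyte markers KRT10 alone was tested and rose, with sums of 69.4 to 75.7 CPM in shVCAN and 52.8 to 56.4 CPM in shGFP, while KRT1 and SPRR1B had no count. Likewise FABP4 alone of 5 adipocyte markers (18.2 to 19.3 CPM summed in shVCAN and 5.02 to 7.24 CPM in shGFP) and ITGA2B alone of 4 platelet markers were tested, and both rose. ADIPOQ, LEP, GP1BA, PF4 and PPBP had no count. The part of host cells, and of the mitochondrial share, in the differences of PLAU, PLAT and SERPINB2 was not tested.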

How the data were processed

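RNA of 6 xenograft tumours was sequenced as paired reads of 150 bases, per the labels' protocols. The submitters' processing notes name hg38 as the build and Trim Galore, STAR and DESeq2 as tools, with no version. The deposited values are whole-number counts of reads per gene, not normalised by the authors. How reads were assigned to genes, with which annotation and strand setting, and how mouse reads were treated was not given in the sources used here. The table had 67071 rows, and 45 second copies of pseudoautosomal genes were left out.

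Symbols came from a table of gene names and from GENCODE 29, which also gave positions and exonic lengths (60659 identifiers named). edgeR 4.0.16 (R 4.3.3) fitted a quasi-likelihood model of shVCAN against shGFP to the 16254 genes that filterByExpr kept, after TMM scaling, and p-values were Benjamini-Hochberg adjusted over all genes tested. Calls, and the words rise and fall, rest on an adjusted p below 0.05. The SE is the log2 fold change divided by the square root of F. Log2 CPM used a prior count of 2. The common biological coefficient of variation was 6.63%. Pairs of libraries had a chi-square per gene of 3.45 to 6.61 within groups and 48.9 to 83.5 between groups, so none was a copy of another, and each was counted as 1 replicate. Nothing says more on how tumours were replicated, and p-values measure the spread between these samples. The 95% intervals of folds use this SE, which includes the spread between tumours. Coefficients of variation given for counting alone cover counting error only.

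Other scalings (library size alone, the upper quartile, size factors of DESeq2), other filters (none, or 1 CPM in 3 samples), other tests (limma-voom with limma 3.58.1, and DESeq2 1.42.0 with its Wald test), a replicate block, an offset for length and GC content, each tumour left out, an adjusted p under 0.01 and a minimum log2 fold change of 1 were tried. Library sizes without mitochondrial messenger RNAs were added after seeing the data. On counts simulated for 16254 genes, the test recovered 80% of 50 genes changed 2-fold and 52% of 50 changed 1.3-fold, with 4 unchanged genes called. The simulation changed few genes, equally up and down, and did not shift the mitochondrial share. In the data 40.3% of the genes tested were called, so these rates may not hold for them.

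The members and lists were chosen with earlier results of these data known. Named genes were VCAN, the members, called genes of the lists (values from 5 CPM in the higher group) and the 2 genes most like each member. Of the 33 list genes considered for naming, 19 share no exonic base with another gene. Some list genes are not reported by name here.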

Additional observations from a re-analysis of the deposited data

How the results depend on the processing

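PLAU, PLAT, SERPINB2 and VCAN kept their direction and call in 17 alternatives, with log2 fold changes of 0.20 to 0.42, 0.54 to 0.77, 1.25 to 1.65 and −1.83 to −1.36. Leaving out 1 tumour gave 0.22 to 0.29 for PLAU, 0.54 to 0.66 for PLAT and 1.37 to 1.60 for SERPINB2. PLAUR and SERPINE2 were not called in any of the 17. A minimum log2 fold change of 1 is not among them: the values of PLAU and PLAT lie under it and those of SERPINB2 and VCAN past it. PLAUR turned to 0.0905 with library size alone and to 0.00031 with the offset for length and GC content, and SERPINE2 to 0.12 with library size alone, while leaving out 1 tumour gave −0.10 to 0.0138 for SERPINE2, the upper end without shGFP tumour 1. For the turn with library size alone, all tested genes shifted by a median of 0.17; for the other turns the cause was not tested. With library size alone 5228 genes were called higher and 1890 lower, against 3120 and 3425 as reported, so the share of higher calls was 73.4% in place of 47.7%. Over all genes that minimum left 450 higher and 435 lower. The offset called 2 listed serpins lower in place of 1. With the length of the longest transcript, PLAU over PLAT was 105 in shVCAN and 135 in shGFP, PLAUR over PLAU was 0.0438 in shVCAN and 0.0550 in shGFP, and SERPINE2 over both activators was 0.00486 in shVCAN and 0.00599 in shGFP. The median of the clearance receptors (−0.07) turned to 0.09 with library size alone and to 0.13 with the offset. That of the other serpins (−0.02) turned to 0.14 with library size alone, 0.015 with the upper quartile and 0.012 without mitochondrial messenger RNAs, and lay between −0.07 and 0.04 when 1 tumour was left out. Replicate numbers did not pair the tumours (correlations of same-numbered deviations 0.0176, 0.0157 and −0.0271), and a replicate block gave 0.26 for PLAU and left 6511 genes called, against 6545. At this depth SERPINB2, with 27 to 122 counts a tumour, had the least precise fold of the members.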
